A study of Homo sapiens with 6 samples.

Results

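MYC and 8 genes of its dimerization network (MAX, MLX, MXD1, MXI1, MXD3, MXD4, MNT and MGA) were followed in the established cell line 8505C, which derives from anaplastic thyroid cancer, an undifferentiated thyroid carcinoma. The 9 genes were chosen by name from the 33539 genes of the deposited table. In 3 libraries the cells had received a control siRNA (NC) and in the other 3 an siRNA that silences POLR1F (siPOLR1F), in both cases for 24 h before poly(A) RNA sequencing. The genotype label is NC or siPOLR1F, and both groups come from 1 cell line in the same medium with no other agent named. POLR1F belongs to RNA polymerase I, the enzyme for ribosomal RNA genes, and the design asked which genes change when it is silenced. Whether libraries of 1 group are separate cultures is not stated in the labels, so the p-values measure only their spread, which may be technical.

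MYC is a short-lived transcription factor that binds DNA as a dimer with MAX and raises the transcription of genes for ribosome production, nucleotide synthesis and metabolism. MAX is also the partner of the MXD proteins (MXD1, MXI1, MXD3, MXD4), MNT and MGA, which compete with MYC for MAX and recruit repressor complexes to the same DNA element, the E-box. MLX is a MAX-like protein that pairs with the glucose-sensing factors MondoA (MLXIP) and ChREBP (MLXIPL), and also with MXD1, MXD4 and MNT. In thyroid cancers MYC is known as a driver of growth, and ribosomal RNA synthesis is one of the processes it stimulates.

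The E-box CACGTG, which reads the same on both strands, is shown here in its sequence context, since it is the element that the whole network binds. RefSeq promoter windows of 250 bases before to 50 bases after a gene's start (build GRCh38.p14) were found for 8 of the 9 members, in 13 windows, and 3 of these genes held the motif. The first 3 lines give these members and the last 2 give the MYC-induced genes HSPD1 (a mitochondrial chaperonin) and SRM (spermidine synthase), the 2 with the smallest p among those that were higher in siPOLR1F and carried the motif before the start. Each sequence runs 5′ to 3′ on the gene's strand, and capitals mark the E-box.
MLX: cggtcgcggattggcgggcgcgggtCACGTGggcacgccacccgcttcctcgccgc
MNT: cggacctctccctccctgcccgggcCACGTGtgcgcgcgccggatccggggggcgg
MXD4: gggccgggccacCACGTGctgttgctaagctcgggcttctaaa
HSPD1: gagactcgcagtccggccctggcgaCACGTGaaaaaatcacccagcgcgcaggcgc
SRM: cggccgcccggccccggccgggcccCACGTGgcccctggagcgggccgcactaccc
The stretches lie at chr17:42567025-42567080 (plus strand) for MLX, chr17:2401223-2401278 (minus) for MNT, chr4:2262317-2262359 (minus) for MXD4, chr2:197500332-197500387 (minus) for HSPD1 and chr1:11060187-11060242 (minus) for SRM. The motif began 50 bases before the start in MLX, 193 in MNT, 238 in MXD4, 88 in HSPD1 and 199 in SRM. It was found in 3 of the 13 member windows and in 7.26% of all 35116 windows, none of which is a measured binding site. Counted by gene, 3 of 8 members and 12.8% of the 9628 tested genes with a window held it.

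Depth per library lay between 60576788 and 63038378 counts. The targeted gene POLR1F stood at 8.28 FPKM (fragment counts scaled by gene length and library size) in NC and at 1.67 in siPOLR1F. Its counts were 2446, 2246 and 2095 against 575, 395 and 413. By the edgeR log2 fold change of -2.30 it was 79.6% lower. Of the labelled cell type's thyroid markers, 1 of 7 in the table reached 1 FPKM in any library: NKX2-1 (45.2 in NC, 27.5 in siPOLR1F), while TG was at 0.00257 and TSHR at 0 in NC. The epithelial keratins KRT8 (117 and 98.0 FPKM) and KRT18 (162 and 146) were abundant and CDH1 was at 0.0285 in NC. The summed FPKM of other cell types' markers ranged in NC and siPOLR1F from 1.18 to 1.58 and 1.03 to 1.19 for fibroblasts, from 5.62 to 6.75 and 2.36 to 4.79 for endothelium and from 7.52 to 12.4 and 9.94 to 15.7 for leukocytes. In each of these lists 1 marker reached 1 FPKM in any library. It was COL1A1 for fibroblasts (means of 0.995 in NC and 0.847 in siPOLR1F), CDH5 for endothelium (5.65 and 2.72) and CD68 for leukocytes (9.33 and 12.9). The leukocyte antigen PTPRC was at 0.00327 and CD163 at 0 in NC. Their part in the results was not tested. In bulk RNA, fewer cells of a type and less RNA per cell cannot be told apart.

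All 9 members passed the filter of a mean of at least 0.5 FPKM, and 1 of them, MAX, was called higher in siPOLR1F (adjusted p below 0.05 in edgeR's quasi-likelihood test, adjusted over 13564 genes). None was called lower. Over all tested genes 17.2% were called, 10.3% higher and 6.94% lower, so 1 of 9 is near the background. In 3 of 9 members (MYC, MAX and MNT, all higher) the ranges of the groups did not overlap in depth-scaled counts (CPM), against 38.2% of all tested genes. At an unadjusted edgeR p below 0.05 there were 4 members (these 3 and MLX). The largest of these p-values (0.0447, MNT) ranked 4288 among the edgeR p-values of all tested genes. DESeq2 called 3 members and 3126 of the 13564 genes. For limma on log2(FPKM + 1) these numbers were 1 and 2077.

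**Figure D1:**
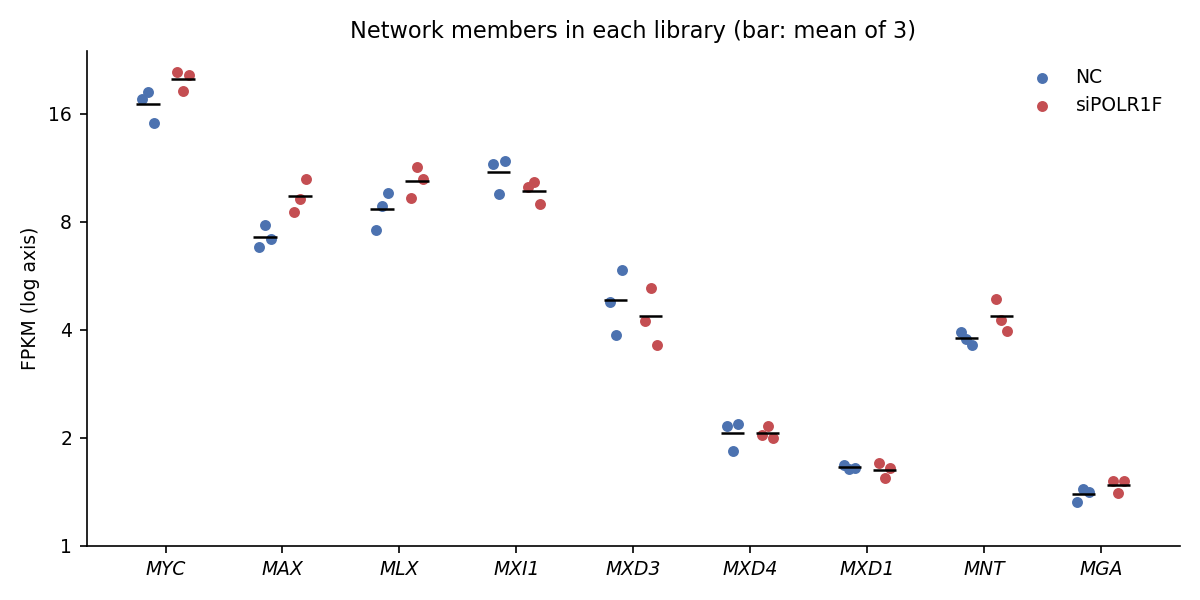
FPKM of the 9 network members in each library on a log axis, NC in blue and siPOLR1F in red, with the mean of 3 libraries as a bar. MYC is the highest member in all 6 libraries and MGA the lowest; the groups of MYC, MAX and MNT are apart, while those of the MXD genes and MGA overlap.

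MYC (ENSG00000136997, GRCh38 chromosome 8, 127735434 to 127741434, plus strand), the activator of the network, was at 17.6, 18.4 and 15.1 FPKM in the NC libraries and at 20.9, 18.5 and 20.6 in siPOLR1F. Each siPOLR1F library was above each NC library, but the lowest siPOLR1F value and the highest NC value were nearly equal. The mean was 17.0 ± 1.73 in NC and 20.0 ± 1.29 in siPOLR1F (SD, n = 3 each), a log2 fold change of 0.24 (SE 0.09, 95% interval 0.04 to 0.44). Its edgeR adjusted p was 0.0900, so MYC was not called, and an exact permutation test (two-sided) gave 0.1, the lowest p possible with 3 against 3 libraries. The interval corresponds to a level between 3.16% and 35.7% above NC. DESeq2 called MYC (adjusted p = 0.0357). Over 17 alternatives its adjusted p lay between 0.0357 and 0.241 and its log2 fold change between 0.16 and 0.30.

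MAX (ENSG00000125952, chromosome 14, 65006174 to 65102695, minus strand), the obligate partner of MYC and of the repressors, was at 6.79, 7.85 and 7.15 FPKM in NC and at 8.51, 9.24 and 10.5 in siPOLR1F. All siPOLR1F libraries were higher than all NC libraries. The mean was 7.26 ± 0.539 in NC and 9.41 ± 0.998 in siPOLR1F (SD, n = 3 each). By the edgeR fold change MAX was 30.1% higher (log2 fold change 0.38, SE 0.09, 95% interval 0.18 to 0.58, edgeR adjusted p = 0.0228). The exact permutation p was 0.1. The call was lost without NC replicate 1 (adjusted p = 0.0556), NC replicate 3 (0.0653), siPOLR1F replicate 2 (0.0571) or siPOLR1F replicate 3 (0.0791) and without a filter on low genes (0.0979), within a range of 6.38e-04 to 0.0979 over 17 alternatives, all with a positive fold change of 0.30 to 0.44. MAX shares 56477 bases with FNTB and 55630 with CHURC1-FNTB, both on the opposite strand, which held means of 2631 and 277 counts in NC and 2494 and 46 in siPOLR1F. The strand setting of the counting is not stated, and the part of these neighbours in the MAX counts was not tested.

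MLX (ENSG00000108788, chromosome 17, 42567072 to 42573239, plus strand), the MAX-like partner of the Mondo proteins, was at 7.60, 8.88 and 9.60 FPKM in NC and at 9.33, 11.4 and 10.5 in siPOLR1F. The highest NC library lay above the lowest siPOLR1F library. The mean was 8.69 ± 1.01 in NC and 10.4 ± 1.04 in siPOLR1F (SD, n = 3 each), and the log2 fold change was 0.27 (SE 0.10, 95% interval 0.04 to 0.50; edgeR adjusted p = 0.107; exact permutation p = 0.2). MLX was not called, but DESeq2 (adjusted p = 0.0450) and edgeR with the replicate block (0.0336) called it. MLX shares 930 bases with PSMC3IP on the other strand, which held a mean of 1126 counts in NC and 1406 in siPOLR1F.

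**Figure D2:**
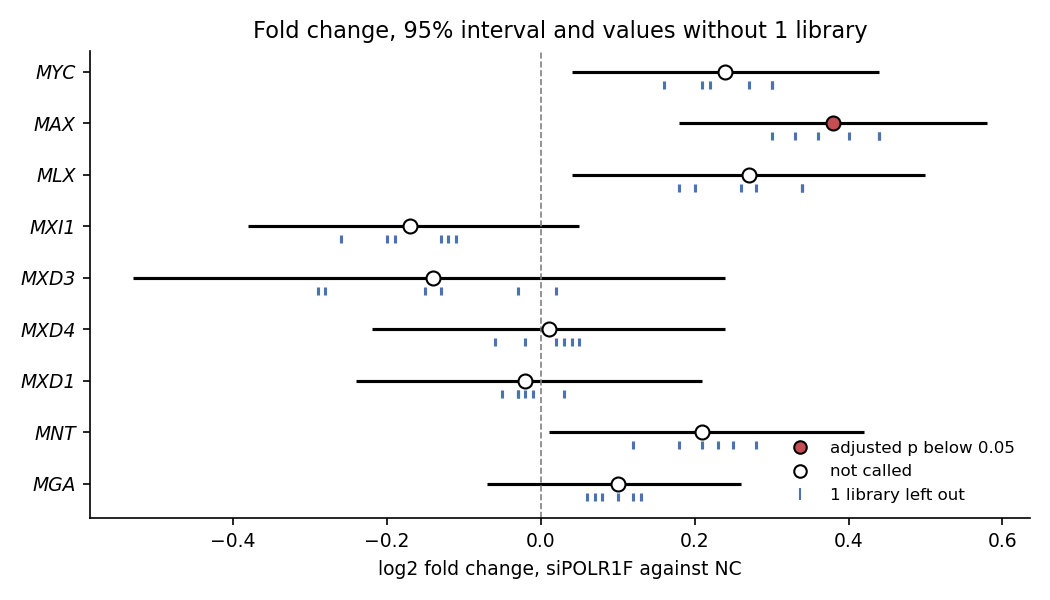
Log2 fold change of each member in siPOLR1F against NC (circle) with its 95% interval (line); ticks below give the value with 1 library left out, and the filled circle marks an adjusted p below 0.05. MAX (0.38) is the filled one, the intervals of MYC, MLX and MNT lie above 0, and those of the MXD genes and MGA include 0.

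MXI1 (ENSG00000119950, chromosome 10, 110207605 to 110287365, plus strand) was the most abundant of the MXD repressors, at 11.6, 9.55 and 11.8 FPKM in NC and at 9.98, 10.3 and 8.96 in siPOLR1F. NC replicate 2 lay among the siPOLR1F libraries. The mean was 11.0 ± 1.24 in NC and 9.73 ± 0.685 in siPOLR1F (SD, n = 3 each), and the log2 fold change was -0.17 (SE 0.09, 95% interval -0.38 to 0.05; edgeR adjusted p = 0.254; exact permutation p = 0.3). Its fold change was negative in all 17 alternatives, in none of which it was called, and the adjusted p was 0.0723 without NC replicate 2.

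MXD3 (ENSG00000213347, chromosome 5, 177301461 to 177311895, minus strand), an MXD protein known from proliferating cells, was at 4.79, 3.86 and 5.88 FPKM in NC and at 4.22, 5.24 and 3.62 in siPOLR1F. It varied most among the 9 members within both groups, with a coefficient of variation of 20.9% in NC and 18.8% in siPOLR1F, and the groups overlapped widely. Its log2 fold change was -0.14 (SE 0.17, 95% interval -0.53 to 0.24; edgeR adjusted p = 0.598; exact permutation p = 0.6), and it was 0.02 without NC replicate 3. MXD3 shares 2284 bases with RAB24 on its own strand and 3151 with PRELID1 on the other, and PRELID1 held a mean of 13752 counts in NC and 14880 in siPOLR1F, against 1594 for MXD3 in NC.

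MXD4 and MXD1, the repressors best known from differentiating cells, were the lowest of the MXD genes. MXD4 (ENSG00000123933, chromosome 4, 2247432 to 2262109, minus strand) was at 2.15, 1.84 and 2.19 FPKM in NC and at 2.03, 2.16 and 2.00 in siPOLR1F, and its log2 fold change was 0.01 (SE 0.10, 95% interval -0.22 to 0.24; edgeR adjusted p = 0.958; exact permutation p = 1). MXD1 (ENSG00000059728, chromosome 2, 69897688 to 69942945, plus strand) was at 1.68, 1.64 and 1.65 FPKM in NC and at 1.70, 1.54 and 1.65 in siPOLR1F, and its log2 fold change was -0.02 (SE 0.10, 95% interval -0.24 to 0.21; edgeR adjusted p = 0.923; exact permutation p = 0.9). For both genes the groups overlapped, the interval spans about the same distance on each side of 0, and the sign was not kept over the alternatives (11 of 16 for MXD4, 14 of 16 for MXD1). MXD1 shares 7549 bases with SNRNP27 on the same strand, which held a mean of 1936 counts in NC against 729 for MXD1.

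MNT (ENSG00000070444, chromosome 17, 2384073 to 2401104, minus strand), the broadly expressed antagonist of MYC, was at 3.95, 3.77 and 3.63 FPKM in NC and at 4.86, 4.26 and 3.96 in siPOLR1F. The groups did not overlap, by a margin of 3.95 against 3.96 FPKM. The mean was 3.78 ± 0.161 in NC and 4.36 ± 0.461 in siPOLR1F (SD, n = 3 each), and the log2 fold change was 0.21 (SE 0.09, 95% interval 0.01 to 0.42; edgeR adjusted p = 0.141; exact permutation p = 0.1). It was not called in any of 16 alternatives, where the adjusted p lay between 0.0702 and 0.362. MNT and MYC therefore had fold changes of the same sign and nearly the same size, with intervals that overlap over most of their length.

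MGA (ENSG00000174197, chromosome 15, 41621134 to 41773081, plus strand) carries a T-box domain beside its MAX-binding domain and is the scaffold of a variant Polycomb complex. It was at 1.32, 1.44 and 1.41 FPKM in NC and at 1.51, 1.40 and 1.51 in siPOLR1F. siPOLR1F replicate 2 lay within the NC range. The log2 fold change was 0.10 (SE 0.07, 95% interval -0.07 to 0.26; edgeR adjusted p = 0.386; exact permutation p = 0.2).

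In NC the mean FPKM, a level per length, fell in the order MYC (17.0), MXI1 (11.0), MLX (8.69), MAX (7.26), MXD3 (4.84), MNT (3.78), MXD4 (2.06), MXD1 (1.66) and MGA (1.39). MYC lay at the percentile 82.8 of the NC levels of all tested genes and MGA at 20.5. The ranges of 3 neighbouring pairs in this order overlapped: MXI1 and MLX, MLX and MAX, and MXD3 and MNT. The other 5 neighbouring pairs did not overlap. MYC was the highest and MXD4, MXD1 and MGA, in this order, the lowest members in each of the 6 libraries. The middle of the order differed between libraries: MXI1 came directly after MYC in all 3 NC libraries and in siPOLR1F replicate 1, and lower, behind MLX, in siPOLR1F replicate 2 and, behind MLX and MAX, in siPOLR1F replicate 3.

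**Figure D3:**
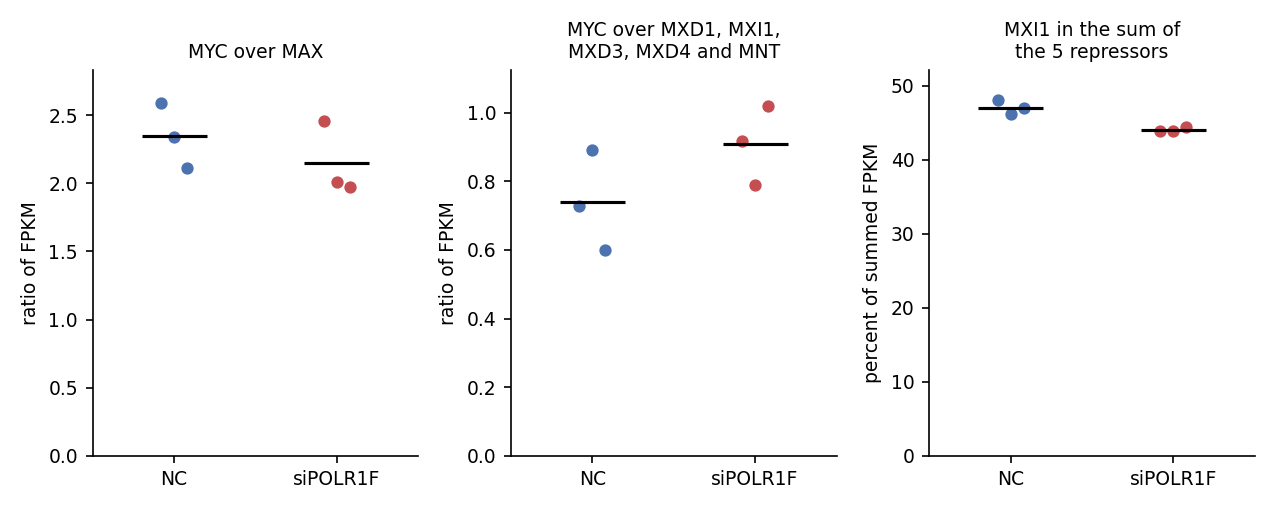
Ratio of MYC to MAX (left), ratio of MYC to the summed FPKM of MXD1, MXI1, MXD3, MXD4 and MNT (middle) and share of MXI1 in that sum (right), 1 point per library with the group mean as a bar and all axes from 0. The groups overlap in the left and middle panels, and in the right panel the NC libraries (46.2% to 48.0%) lie above the siPOLR1F libraries (43.8% to 44.4%).

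Since MYC and its antagonists compete for MAX, their RNA levels were also set against each other within each library. The ratio of MYC to MAX FPKM was 2.59, 2.34 and 2.11 in NC and 2.46, 2.01 and 1.97 in siPOLR1F, with overlapping groups. The summed FPKM of the 5 repressors MXD1, MXI1, MXD3, MXD4 and MNT was 24.2, 20.7 and 25.1 in NC and 22.8, 23.4 and 20.2 in siPOLR1F. MYC stood at 0.727, 0.891 and 0.600 of this sum in NC and at 0.918, 0.791 and 1.02 in siPOLR1F. The groups overlapped here too, through NC replicate 2 and siPOLR1F replicate 2. MXI1 made up 48.0%, 46.2% and 46.9% of the repressor sum in NC and 43.8%, 43.8% and 44.4% in siPOLR1F, and these ranges did not overlap. The FPKM of MXI1 itself overlapped between the groups, and its share also moves with the other repressors in the sum. For comparison, the groups did not overlap in CPM for 38.2% of all tested genes. These ratios describe RNA, and the levels of the proteins were not measured.

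The 3 tested genes outside the members and lists whose log2 CPM followed MYC most closely over the 6 libraries were CCDC47 (Pearson r = 0.9945), which encodes a calcium-binding protein of the endoplasmic reticulum, UTP3 (0.9934), which encodes a processome component for the small ribosomal subunit, and FEM1C (0.9921), which encodes a ubiquitin ligase adaptor. In all, 88 tested genes had r above 0.95 with MYC. Their libraries are the same 6 and include the difference between the groups, so r is a description only. None of the 3 was called (log2 fold changes of 0.17, 0.25 and 0.09).

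Genes that MYC is known to induce include many for ribosome production and growth. Of 58 such genes, 57 were in the table and all 57 were tested: 22 were called higher and 1 lower, 38.6% and 1.75%, against 10.3% and 6.94% of all tested genes. Their median log2 fold change was 0.22 against -0.01 over all tested genes, and 43 of 57 were positive. At a mean of at least 5 FPKM, 25 of 55 targets were called higher and 2 lower. At that level the share of all genes called higher was also above 10.3%. NOLC1, a nucleolar protein that assists small ribonucleoproteins in RNA modification, rose from 19.0 ± 1.46 to 57.2 ± 3.03 FPKM (SD, n = 3 each; log2 fold change 1.60, SE 0.07; edgeR adjusted p = 5.91e-05). TCOF1, the treacle protein that serves RNA polymerase I transcription in the nucleolus, rose from 10.2 ± 0.501 to 17.7 ± 1.00 FPKM (0.80, SE 0.06; edgeR adjusted p = 1.75e-04). Both fold changes were larger than that of any network member. POLR1B, the second largest subunit of RNA polymerase I, rose from 9.12 ± 0.188 to 13.3 ± 0.919 FPKM (0.55, SE 0.06; edgeR adjusted p = 0.00106). RRP12, a ribosome maturation and export factor, rose from 5.48 ± 1.00 to 9.91 ± 0.627 FPKM (0.86, SE 0.12; edgeR adjusted p = 0.00260). For all 4 genes the groups did not overlap and the call was kept in all 17 alternatives. These 4 were named for the smallest adjusted p of the list, so both traits follow largely from that choice. The groups did not overlap in CPM for 38.2% of all tested genes.

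The 1 target called lower, named after its values were seen, was NPM1, an abundant nucleolar chaperone, which fell from 183 ± 9.22 to 161 ± 2.67 FPKM (log2 fold change -0.18; edgeR adjusted p = 0.0318). The number of lower targets was 1 without NC replicate 3 and 0 without any 1 of the other 5 libraries. NPM1 and HSPD1 have processed pseudogenes, so their counts are less certain. Splitting the 57 targets by the table's own functional annotation, a split also chosen after values were seen, put 26 in ribosome production and 31 outside it. In the first group 13 were higher and 1 lower (median 0.30), and in the second 9 were higher and 0 lower (median 0.10). The 9 were DUSP2, GNL3, GRWD1, HSPD1, NDUFAF4, POLR1B, PPRC1, PUS1 and SRM, of which POLR1B, GNL3 and GRWD1 are nucleolar proteins that the annotation did not place in ribosome production. The difference between the 2 groups of targets was not tested. Among all tested genes 10.3% were called higher and 6.94% lower, with a median of -0.01. The number of higher targets depended on single libraries: it was 7 without siPOLR1F replicate 3, 9 without siPOLR1F replicate 1, 11 without NC replicate 3 and 13 without NC replicate 1. In the same fits, in this order, the higher calls over all tested genes also fell, from 1391 to 730, 813, 877 and 1072.

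**Figure D4:**
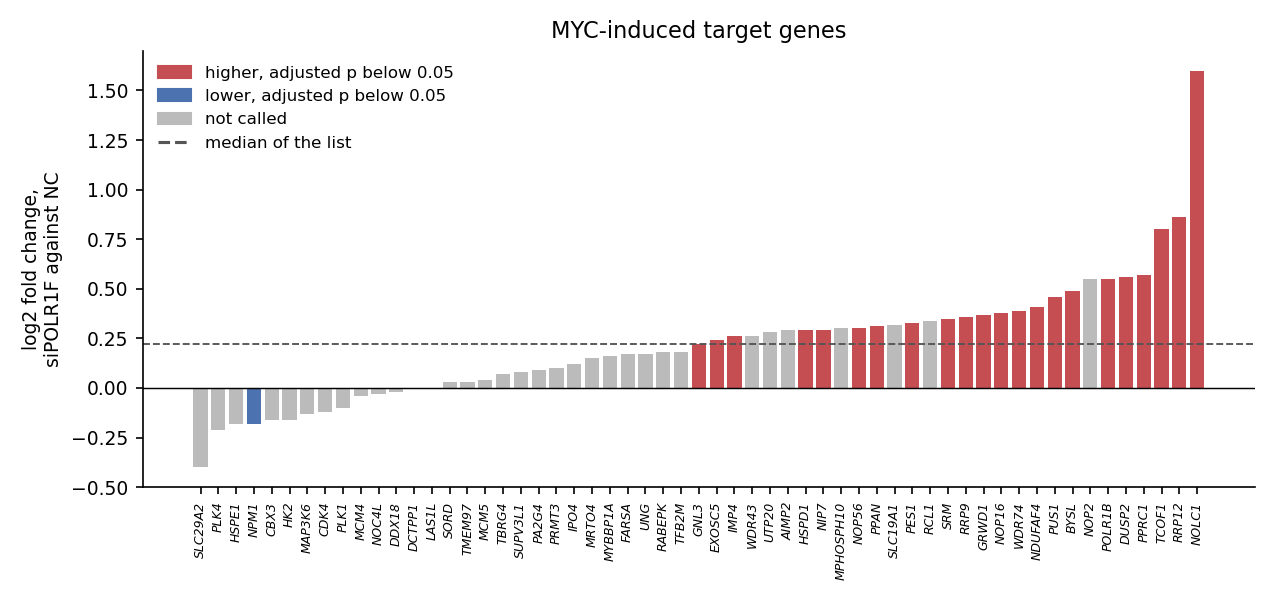
Log2 fold change in siPOLR1F against NC of the 57 tested MYC-induced genes in rising order, red for those called higher, blue for lower and grey for not called, with the list's median as a dashed line. NOLC1 (1.60), RRP12 (0.86) and TCOF1 (0.80) stand at the upper end, and NPM1 is the 1 blue bar.

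The E-box shown above was held by 25 of 47 MYC-induced targets with a promoter window (53.2%) and by 9 of the 18 such targets called higher, against 12.8% of the 9628 tested genes with a window. Over all tested genes, those with the motif were called higher in 13.9% and lower in 8.01% of 1236 genes. Those without it were called higher in 11.3% and lower in 7.39% of 8392 genes. The median log2 fold change was 0.01 with the motif and -0.01 without. Of the 3 members that held the motif, MLX had a log2 fold change of 0.27, MNT of 0.21 and MXD4 of 0.01, and none was called in the edgeR test over all libraries (MLX was called by DESeq2 and with the replicate block, as given above).

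A second list of classical MYC-bound genes of metabolism and growth held 21 tested genes. Of these, 3 were higher and 1 lower (14.3% and 4.76%, against 10.3% and 6.94% of all tested genes), with a median of 0.12. CDC25A, a phosphatase that drives the cell cycle, rose from 10.1 ± 2.28 to 17.6 ± 1.52 FPKM (SD, n = 3 each; log2 fold change 0.81; edgeR adjusted p = 0.00881). ODC1, the first enzyme of polyamine synthesis, rose from 90.7 ± 12.2 to 127 ± 9.49 (0.50; edgeR adjusted p = 0.0106). The glutamine transporter SLC1A5 rose from 75.3 ± 4.08 to 98.4 ± 4.64 (0.39; edgeR adjusted p = 0.00350). LDHA, which makes lactate from pyruvate, went the other way and fell from 668 ± 3.38 to 542 ± 12.7 (-0.29; edgeR adjusted p = 0.00119). LDHA also has processed pseudogenes that could share its reads. Leaving out 1 library at a time gave 3 to 7 higher genes in this list, with 7 without NC replicate 2.

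Of 11 tested genes that MYC is known to repress, 0 were called higher and 1 lower (0% and 9.09%). Their median log2 fold change was -0.22, with 1 positive value. These shares were 10.3% and 6.94% among all tested genes, so 0 higher and 1 lower of 11 are near the background. The 1 was CDKN1B, the cell cycle inhibitor p27, which fell from 4.60 ± 0.450 to 3.23 ± 0.362 FPKM (SD, n = 3 each; log2 fold change -0.50; edgeR adjusted p = 0.0124). The other 10, including CDKN1A (-0.24; edgeR adjusted p = 0.137) and CCND1 (-0.22; 0.191), did not pass the test and ranged from -0.35 in ID2 to 0.11 in GADD45A; these 4 were chosen after their values were seen.

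**Figure D5:**
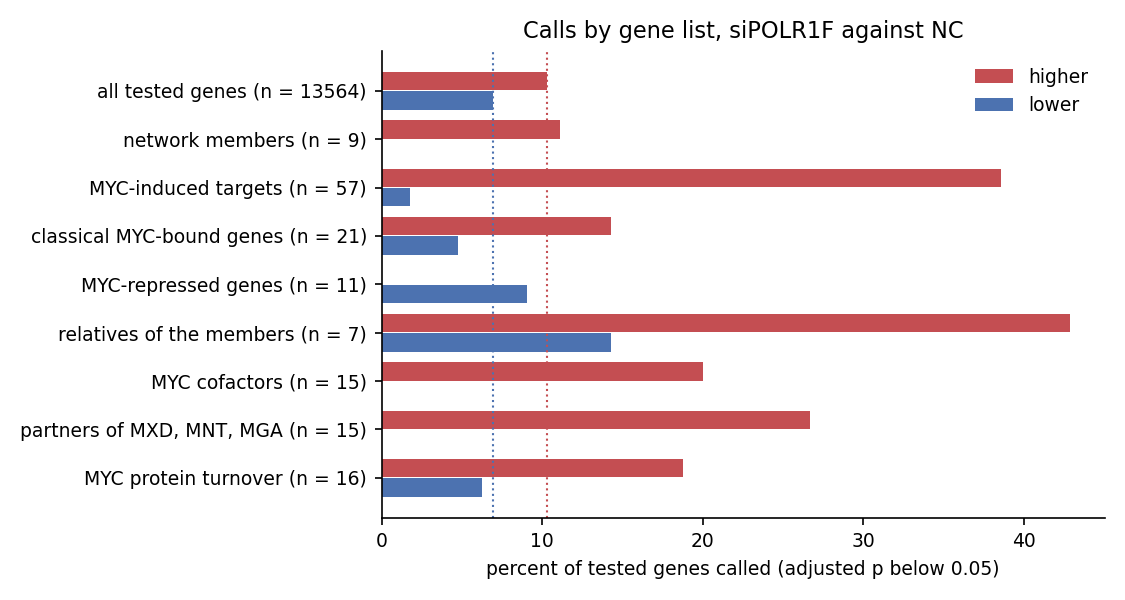
Percent of tested genes called higher (red) and lower (blue) in siPOLR1F for all tested genes, the 9 members and 7 related lists, with dotted lines at the shares over all tested genes (10.3% and 6.94%). The members stand at 11.1% higher and 0% lower; the MYC-induced targets stand at 38.6% higher and 1.75% lower.

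Among 7 tested relatives of the network, other E-box factors of the same structural class, 3 were called higher and 1 lower (42.9% and 14.3%). These shares were 10.3% and 6.94% over all tested genes. TFAP4, itself a known MYC target, rose from 2.33 ± 0.106 to 4.11 ± 0.210 FPKM (SD, n = 3 each; log2 fold change 0.82; edgeR adjusted p = 3.61e-04). TFE3, a regulator of lysosomal genes, rose from 26.2 ± 1.85 to 32.2 ± 0.237 (0.30; edgeR adjusted p = 0.0119). MLXIP (MondoA), the partner of MLX, rose from 3.70 ± 0.429 to 4.64 ± 0.159 (0.34; edgeR adjusted p = 0.0300). The 1 called lower was MITF, the melanocyte factor related to TFE3, which fell from 3.61 ± 0.0905 to 2.96 ± 0.194 (-0.28; edgeR adjusted p = 0.0358). The MYC paralogue MYCL had 0.503 FPKM in NC against 0.505 in siPOLR1F, far below MYC in both groups. MLXIP lost its call without siPOLR1F replicate 1 (0.0659), 2 (0.0924) or 3 (0.0888), within 0.00203 to 0.115 over its alternatives, and MITF lost it without any 1 of the 6 libraries (0.0575 to 0.119, within 0.0169 to 0.119).

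The glucose-responsive genes that MondoA and MLX are known to induce were measured by 2 examples. TXNIP, an inhibitor of glucose uptake, had a level of 26.4 ± 8.12 FPKM under NC and 25.0 ± 5.58 under siPOLR1F (SD, n = 3 each; log2 fold change -0.07; edgeR adjusted p = 0.863). ARRDC4, its arrestin-like relative, was at 1.72 and 2.08 FPKM (0.28; edgeR adjusted p = 0.251). Neither of these 2 was called, and TXNIP varied between the NC libraries with an SD of 8.12 FPKM.

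Of 15 cofactors through which MYC acts on chromatin and polymerase II, 3 were called higher and 0 lower (20.0%, median 0.10). Over all tested genes, which were not matched to the list by expression level, 10.3% were called higher and 6.94% lower. At a mean of at least 5 FPKM, 2 of 13 cofactors were called higher and 1 lower. At that level the share of all genes called higher was above 10.3%. ZBTB17 (MIZ1), the zinc finger protein through which MYC represses genes, rose from 6.18 ± 0.166 to 7.38 ± 0.306 FPKM (SD, n = 3 each; log2 fold change 0.26; edgeR adjusted p = 0.0307). EP400, the ATPase of a histone acetyltransferase complex, rose from 4.51 ± 0.287 to 5.27 ± 0.249 (0.23; edgeR adjusted p = 0.0452). The calls in this list depended on single libraries: between 0 and 2 cofactors were called when 1 library was left out, and none without NC replicate 3, siPOLR1F replicate 1 or siPOLR1F replicate 3. Over its alternatives the adjusted p ranged from 0.0103 to 0.113 for ZBTB17 and from 0.0131 to 0.139 for EP400. ZBTB17 was called in 10 of 17 alternatives and EP400 in 5 of 16.

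Of 15 proteins that the repressors use, the SIN3 and histone deacetylase complex of MXD and MNT and the Polycomb complex of MGA, 4 were called higher and 0 lower (26.7%), although the median log2 fold change was 0.03. The share of all tested genes was 10.3% higher and 6.94% lower. At a mean of at least 5 FPKM, 3 of 13 were called higher and 0 lower, and the share of all genes called higher was above 10.3%. PCGF6, the Polycomb subunit that marks the MGA complex, rose from 5.72 ± 0.276 to 9.0 ± 0.275 FPKM (SD, n = 3 each; log2 fold change 0.66; edgeR adjusted p = 8.73e-04). HDAC1, a histone deacetylase, rose from 32.5 ± 0.201 to 41.8 ± 2.02 (0.37; edgeR adjusted p = 0.00271). TFDP1, the dimer partner of E2F factors, rose from 40.2 ± 2.17 to 48.2 ± 3.88 (0.27; edgeR adjusted p = 0.0302), and E2F6, which binds DNA within the MGA complex, rose from 4.21 ± 0.307 to 5.44 ± 0.714 (0.38; edgeR adjusted p = 0.0446). The other 11, among them the Polycomb subunits RING1 (-0.12) and RNF2 (-0.08), did not pass the test and ranged from -0.16 in CBX3 to 0.28 in L3MBTL2 (edgeR adjusted p = 0.162); these 4 were named after their values were seen. Leaving out NC replicate 1, NC replicate 3, siPOLR1F replicate 2 or siPOLR1F replicate 3 gave 2 calls in this list. In these fits TFDP1 had an edgeR adjusted p of 0.0684, 0.0762, 0.0719 and 0.102 and E2F6 of 0.0963, 0.127, 0.0694 and 0.147. The adjusted p over all alternatives ranged from 0.00266 to 0.124 for TFDP1 and from 0.0101 to 0.151 for E2F6. TFDP1 was called in 12 of 17 alternatives and E2F6 in 5 of 16.

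The MYC protein is removed by ubiquitin ligases and spared by deubiquitinases. Of 16 genes of this turnover, 3 were called higher and 1 lower (18.8% and 6.25%, median 0.09), against 10.3% and 6.94% of all tested genes. At a mean of at least 5 FPKM, 1 of 11 was called higher and 1 lower, and the share of all genes called higher was above 10.3%. FBXW7, the ligase subunit that recognises phosphorylated MYC, rose from 1.24 ± 0.0861 to 1.90 ± 0.0915 FPKM (SD, n = 3 each; log2 fold change 0.62; edgeR adjusted p = 0.00268). USP36, a nucleolar deubiquitinase that stabilises MYC, rose from 5.05 ± 0.562 to 7.27 ± 0.355 (0.53; edgeR adjusted p = 0.00541). MYCBP2, a large ubiquitin ligase, rose from 2.03 ± 0.0154 to 2.55 ± 0.220 (0.34; edgeR adjusted p = 0.0151). SKP2, another ligase subunit that acts on MYC and on p27, fell from 5.04 ± 0.286 to 3.92 ± 0.257 (-0.36; edgeR adjusted p = 0.0101). The higher genes thus include a ligase that removes MYC and an enzyme that spares it. MYCBP2 had an adjusted p of 0.0512 without NC replicate 3 (3.49e-04 to 0.0614 over its alternatives), and SKP2 shares 4261 bases with NADK2 on the other strand, which held a mean of 2044 counts over the 6 libraries against 5407 for SKP2.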

How the data were processed

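The labels gave the groups and the replicate numbers. The submitters' processing notes name fastp, HISAT2, StringTie and the build GRCh38; tool versions, gene annotation and strand setting are not stated in them. The authors deposited 1 table of 33539 genes with whole-number counts, used as deposited, and FPKM per library. The deposited FPKM served for levels and for the filter. Coordinates, names and annotation terms are the table's.

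Counts were tested with edgeR 4.0.16 (R 4.3.3; TMM factors, two-sided quasi-likelihood test) over 13564 genes at a mean of at least 0.5 FPKM over the 6 libraries, with Benjamini-Hochberg adjustment over all of them and a threshold of 0.05. These genes held 99.4% of the counts. The biological coefficient of variation was 0.137. Single members were also compared by exact permutation of log2 CPM, counts scaled by library size (prior count 0.5). No 2 libraries agreed within counting noise. Alternatives were DESeq2 1.42.0, limma 3.58.1 on log2(FPKM + 1) and log2(FPKM + 0.1), other scalings and filters, a robust fit, a replicate block and leaving out each library.

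Members and gene lists were chosen with earlier results of these data known. They were not matched by expression level to all tested genes, and the part of level in their shares was not tested. All members were named, and up to 4 genes per list with the smallest adjusted p among those past the threshold, or the 2 most abundant where none passed, and the 3 genes most like MYC. 1 of the genes this rule names is not reported here. The symbols PHB, of the MYC-induced list, and MYCN, of the relatives, were not matched in the deposited table. MYC was not matched in the promoter table.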

Additional observations from a re-analysis of the deposited data

How the results depend on the processing

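With 2333 genes called over all, 976 were called with no filter on low genes and between 1153 and 2167 with 1 library left out. Of the 9 members, where 1 was called, DESeq2 called 3, edgeR with no filter 0, edgeR with the replicate block 2, and fits without 1 library 0 to 1. Of all tested genes DESeq2 called 3126. Of the MYC-induced targets, where 23 were called in either direction, 6 were called with no filter and 7 to 25 with 1 library left out. No direction of MYC, MAX, MLX, MNT, MGA or MXI1 changed under any alternative tried. All alternatives use the same libraries. For MYC, MAX and MNT, whose groups did not overlap, leaving out 1 library could hardly change the sign. Upper-quartile scaling moved the median log2 fold change of all genes from -0.014 to -0.064 and the split from 1391 higher and 942 lower (59.6% higher) to 1114 and 1475 (43.0%), with 17 higher and 3 lower targets. The groups share replicate numbers, and the labels do not say whether these mark pairs. Same-numbered libraries deviated together with r of 0.373, -0.03 and 0.292, and differently numbered libraries with r from -0.411 to 0.191. With so few libraries these values do not decide whether the numbers pair them. With the replicate block 2642 genes were called.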
